A study of Homo sapiens with 6 samples.

Results

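The ZNF genes described here are 175 human zinc finger genes that NB4 cells express at a mean of at least 4 RPKM without treatment. RPKM scales a gene's reads to its exon length and to the size of the library. They were chosen by symbol (ZNF, a number and at most 1 letter) and by the mean of the 3 control libraries, from 420 such symbols among 23858 genes listed. The other 245 ZNF symbols had lower control means. NB4 is an established human cell line from acute promyelocytic leukaemia, with the PML-RARA fusion characteristic of that disease. Total RNA depleted of ribosomal RNA was sequenced from 3 libraries of NB4 cells treated with arsenic trioxide (ATO) for 6 h and from 3 control libraries of the same line. The sources used here give neither the dose nor the control's vehicle. Nor do they say that replicates were separate cultures, and p-values here measure a spread between libraries that may be technical.

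Most ZNF proteins carry C2H2 fingers, short folds in which a pair of cysteines and a pair of histidines hold a zinc ion so that a helix can read DNA. Many also begin with a KRAB domain, which recruits the corepressor TRIM28 and, through it, enzymes that write repressive histone marks, often on transposable elements. In the human genome these genes lie in clusters of related copies, many of them on chromosome 19. ZNF transcripts are known as a class with short half-lives. Neither half-life nor repression was measured here, so the 175 genes stand for expressed ZNF symbols and not for a tested class of short-lived repressors.

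Of the 175 members, 171 are protein-coding in GENCODE release 29 (GRCh38) and 4 (ZNF29P, ZNF271P, ZNF767P and ZNF788) are annotated as pseudogenes. They lie on 19 chromosomes, with 57 on chromosome 19, 22 on chromosome 7, 12 on chromosome 1 and 11 on chromosome 3. Translated coding transcripts held 0 to 31 finger motifs per protein, with a median of 9. The TGEKP linker that joins neighbouring fingers occurred in 113 of the 171. A KRAB A-box-like stretch was found in 58 by a strict pattern and in 82 by a looser one. A protein with no match may still have a divergent KRAB domain.

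Library totals were 19350869 to 22598088 reads and did not differ between groups beyond their spread (exact two-sided permutation test, p = 0.4, n = 3 each, where 0.1 is the smallest p possible). For a gene with 1 kb of exon, 3 reads equal 0.133 to 0.155 RPKM, which is a limit from counting error alone. The members held a median of 1032 reads per library on average, and ZNF29P, with 11 reads in its lowest library, was the only member with a mean under 100. In a principal component analysis of all tested genes the second component (15.2% of the variance) set control replicate 1 and ATO replicate 3 apart from the other 4 libraries. In the members alone the first component held 72.8% of the variance and separated the groups, and the second (11.8%) had its highest scores in the same 2 libraries, 0.84 for ATO replicate 3 and 1.40 for control replicate 1. The promyelocyte markers of the fixed list had 5 of 6 genes listed, with MPO, the granule peroxidase, at 540.3 to 779.7 RPKM in ATO libraries against 807.5 to 1071 RPKM in control libraries, and summed to 666 to 1006 RPKM in ATO libraries against 998 to 1389 RPKM in control libraries. Markers of other cell types were low: 1 of 3 T cell genes was listed (3.04 to 4.22 against 3.22 to 3.76 RPKM), 2 of 3 B cell genes (summed 5.98 to 6.26 against 3.05 to 3.26 RPKM) and 2 of 3 epithelial genes (summed 4.83 to 7.12 against 5.04 to 6.44 RPKM), while the 3 erythroid and 3 fibroblast genes were not among the genes listed. Their part in the results was not tested.

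Regulatory sequence of 5 members is shown first because the clusters described later in the text contain them. They are RefSeq promoters of GRCh38.p14, from 250 bases before the start of transcription to 50 after it, each on the strand of its gene. Capitals mark matches to any of 6 searched motifs. ZNF100 is on chr19:21767530-21767829 (minus strand), ZNF92 on chr7:65373605-65373904 (plus strand) and ZNF107 on chr7:64665883-64666182 (plus strand), and all 3 belong to clusters whose members had positive fold changes. ZNF749 on chr19:57435075-57435374 (plus strand) and ZNF587 on chr19:57849609-57849908 (plus strand) belong to the cluster at the end of chromosome 19, where most fold changes were negative.
ZNF100: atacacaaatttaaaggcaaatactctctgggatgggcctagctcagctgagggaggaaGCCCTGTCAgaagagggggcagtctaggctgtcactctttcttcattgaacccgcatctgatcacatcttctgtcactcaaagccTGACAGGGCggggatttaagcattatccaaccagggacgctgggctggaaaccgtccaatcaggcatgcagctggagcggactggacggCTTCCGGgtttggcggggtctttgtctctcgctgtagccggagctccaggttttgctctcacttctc
ZNF92: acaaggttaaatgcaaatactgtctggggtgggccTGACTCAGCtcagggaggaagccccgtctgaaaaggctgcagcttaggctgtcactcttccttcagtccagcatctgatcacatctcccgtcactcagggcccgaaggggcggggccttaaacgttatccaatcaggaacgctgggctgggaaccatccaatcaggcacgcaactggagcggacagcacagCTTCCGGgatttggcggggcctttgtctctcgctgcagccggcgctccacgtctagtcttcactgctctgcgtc
ZNF107: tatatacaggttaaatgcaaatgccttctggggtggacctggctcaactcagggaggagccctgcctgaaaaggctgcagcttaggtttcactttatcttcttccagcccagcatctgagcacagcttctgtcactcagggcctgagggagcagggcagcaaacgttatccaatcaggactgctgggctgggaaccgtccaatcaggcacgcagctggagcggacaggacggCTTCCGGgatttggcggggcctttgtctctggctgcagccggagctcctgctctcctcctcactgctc
ZNF749: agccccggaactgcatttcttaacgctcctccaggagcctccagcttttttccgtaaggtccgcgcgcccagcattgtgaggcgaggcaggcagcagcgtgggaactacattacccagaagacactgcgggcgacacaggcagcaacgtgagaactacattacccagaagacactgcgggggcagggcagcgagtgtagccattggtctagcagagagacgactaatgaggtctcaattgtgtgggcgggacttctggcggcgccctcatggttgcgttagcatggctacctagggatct
ZNF587: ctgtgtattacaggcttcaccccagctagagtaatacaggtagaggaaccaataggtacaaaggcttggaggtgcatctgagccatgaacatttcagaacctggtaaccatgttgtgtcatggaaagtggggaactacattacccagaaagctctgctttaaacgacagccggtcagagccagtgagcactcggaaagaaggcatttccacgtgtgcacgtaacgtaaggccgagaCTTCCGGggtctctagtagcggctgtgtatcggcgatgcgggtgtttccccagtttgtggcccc
In ZNF100, ZNF92, ZNF107 and ZNF587 the capitals near the start are CTTCCGG, the reverse complement of the ETS element CCGGAAG, whose first bases lie at -17, -24, -18 and -14 relative to the start. The other capitals in ZNF100 and ZNF92 are matches to the core of the NRF2 element, and ZNF749 had no match to the exact letters of any of the 6. ZNF749 and ZNF587 both hold the run aactacattacccagaa, which differs from the searched ZNF143 core ACTACAA in that core's last base. Global alignment gave 79.8% identical positions between ZNF100 and ZNF92, 78.9% between ZNF100 and ZNF107 and 82.2% between ZNF92 and ZNF107, although ZNF100 is on chromosome 19 and the other two are on chromosome 7. ZNF749 and ZNF587 were 49.4% identical to each other and 46.8% to 49.6% identical to those 3.

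The comparison asks which members had a different transcript level after 6 h of ATO. Of the 175, 33 were higher and 24 lower after ATO, and 118 did not pass the test (limma-trend on log2 of RPKM + 1 over 16803 genes, Benjamini-Hochberg adjusted p under 0.05). These are 18.9% and 13.7% of the members, where the same test called 12% of all tested genes higher and 13.4% lower, together 25.4%. Among the 7593 protein-coding genes with a control mean of at least 4 RPKM, 13.9% were called higher and 20.2% lower, together 34.1%, close to the 32.6% of members called in either direction. The members' median log2 fold change was 0.09, with 105 positive and 70 negative, against -0.0033 over all tested genes and -0.04 over those protein-coding genes. The changes were small: no called member reached a fitted 2-fold change on the log2(RPKM + 1) scale, which understates changes at low levels, and 9 reached 1.5-fold. ZNF746 passed 2-fold with limma-voom on recovered reads, and ZNF29P with a pseudocount of 0.1, without ATO replicate 3 and without control replicate 1. Ratios of the plain mean levels, ATO over control, ran from 0.462 to 1.999.

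**Figure D1:**
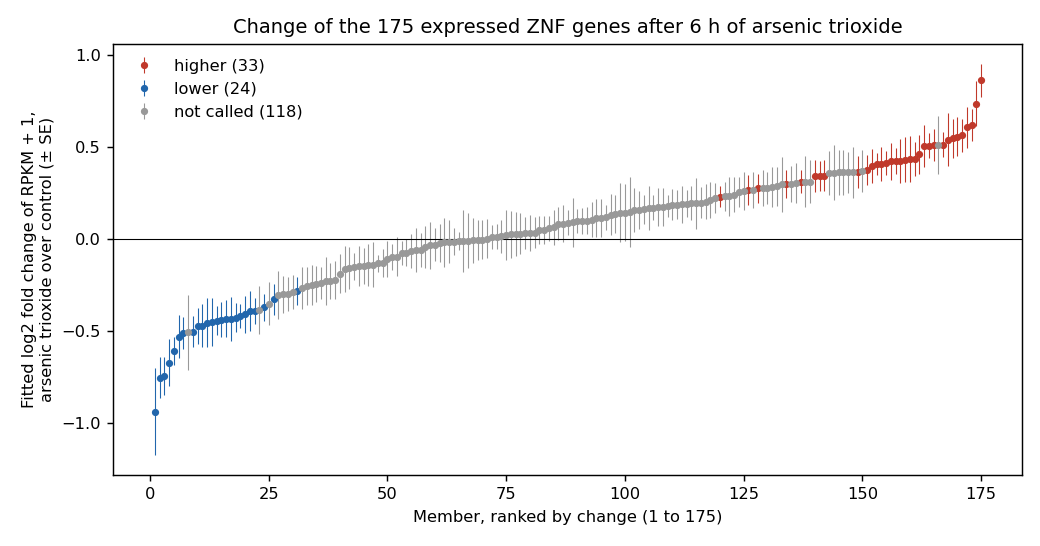
Fitted log2 fold change of RPKM + 1 (vertical axis, ATO over control) of the 175 members in rank order (horizontal axis), with bars of 1 standard error. Red points are the 33 called higher, blue points the 24 called lower and grey points the 118 not called, and the range runs from -0.94 to 0.86.

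The 3 ATO and 3 control libraries did not overlap in 104 members (59.4%), 66 with ATO higher and 38 with ATO lower, against 44.6% of all tested genes and 54.7% of protein-coding genes with a control mean of at least 4 RPKM. All 57 called members were among them. With limma-voom on recovered reads, a test that uses the depth of each value, 50 members were higher and 30 lower, where that test called 15% of all tested genes higher and 16.2% lower, and 17.5% and 24.8% of those protein-coding genes. At an unadjusted p under 0.05 with limma-trend, 58 members were higher and 35 lower, against 18.9% higher and 20.3% lower of all tested genes and 19.9% and 28.1% of those protein-coding genes. Leaving out 1 library at a time gave 18 to 25 members higher and 11 to 18 lower, where those fits called 7.92% to 9.08% of all tested genes higher and 8.49% to 11.4% lower. The higher count was 18 without ATO replicate 1, 18 without ATO replicate 2, 20 without ATO replicate 3 and 19 without control replicate 3. The lower count was 13 without ATO replicate 1, 12 without control replicate 2 and 11 without control replicate 3. Without both control replicate 1 and ATO replicate 3 it was 14 higher and 13 lower. Of the 57 calls, 23 (13 higher and 10 lower) passed in all 6 of these single-library fits, and no called member changed sign in any of the 15 other fits.

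The members were chosen on their control level, so the balance of higher and lower calls was also read for other choices. When ZNF symbols were chosen on the mean of all 6 libraries, 188 entered, with 39 higher, 23 lower and a median log2 fold change of 0.13. Chosen on the ATO mean, 188 entered, with 40 higher, 19 lower and a median of 0.15. When 1 control library chose the members and was then left out of the test, the counts were 25 higher and 18 lower, 22 and 12, and 19 and 11 for control replicates 1, 2 and 3. Choices that use the ATO libraries admit genes through their ATO level, which favours higher calls. Among protein-coding genes with a 6-library mean of at least 4 RPKM, 15.4% were higher and 19.1% lower. With an ATO mean of at least 4 RPKM these were 16.4% and 18.0%, and with such a control mean 13.9% and 20.2%. Higher calls of ZNF symbols outnumbered lower calls under each of these choices, but not at a control mean of at least 8 RPKM, where 86 members had 17 higher and 17 lower.

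Just inside the threshold, ZNF718, ZNF766 and ZNF232 had ATO means of 4.04, 4.66 and 3.23 RPKM and control means of 4.07, 4.12 and 4.21 RPKM. Just outside it, ZNF417, ZNF169 and ZNF134 had ATO means of 4.83, 2.33 and 3.55 RPKM and control means of 3.98, 3.99 and 3.99 RPKM. ATO means of the members ran from 2.95 to 60.4 RPKM with a median of 8.58, and control means from 4.07 to 71.9 RPKM with a median of 7.97. In 8 members the ATO mean was under 4 RPKM, and in 89 the control mean was between 4 and 8 RPKM. The median coefficient of variation between libraries was 7.56% in the ATO group and 7.84% in the control group. Summed over members, the libraries held 1930, 1975 and 1957 RPKM after ATO and 1830, 1881 and 1905 RPKM in control, and the members took 1.27% ± 0.018 of all reads after ATO and 1.20% ± 0.022 in control (SD, n = 3 each). Fewer cells of a kind and less RNA per cell cannot be told apart in these bulk samples.

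ZNF746 had the largest rise. It encodes PARIS, a KRAB-type repressor known as a substrate of the ubiquitin ligase parkin and as a repressor of the metabolic coactivator gene PPARGC1A. ZNF746 (chromosome 7, 149472696 to 149497817) had 9.51, 8.55 and 9.38 RPKM in ATO libraries, against 4.24, 4.78 and 4.70 RPKM in control libraries. The lowest ATO library was well above the highest control library (log2 fold change 0.86, SE 0.09, adjusted p = 0.00153). ZNF777, its neighbour on chromosome 7 and also a KRAB gene, had 12.5, 10.5 and 11.1 RPKM in ATO libraries, against 7.26, 6.71 and 8.40 RPKM in control libraries (log2 fold change 0.55, SE 0.11, adjusted p = 0.0117). Both stayed called with any 1 library left out.

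ZNF280C (chromosome X, 130202711 to 130268899), a finger protein with 7 finger motifs, had 13.5, 15.7 and 12.6 RPKM in ATO libraries, against 6.80, 8.14 and 8.98 RPKM in control libraries (log2 fold change 0.74, SE 0.12, adjusted p = 0.00656). ZNF100, a KRAB gene with 11 finger motifs, had 11.7, 12.7 and 12.7 RPKM in ATO libraries, against 7.17, 7.41 and 8.53 RPKM in control libraries (log2 fold change 0.62, SE 0.09, adjusted p = 0.00385). ZNF92, another gene with 11 finger motifs, had 22.01, 25.98 and 23.2 RPKM in ATO libraries, against 13.95, 14.03 and 17.8 RPKM in control libraries (log2 fold change 0.61, SE 0.11, adjusted p = 0.00917). In these 3 genes every ATO library was above every control library, and each call held with any 1 library left out. ZNF41 on the X chromosome, with 17 finger motifs, had 7.35, 8.80 and 9.25 RPKM in ATO libraries, against 5.16, 5.51 and 5.55 RPKM in control libraries (log2 fold change 0.56, adjusted p = 0.0103). ZNF266, a KRAB gene on chromosome 19, had 30.99, 28.1 and 28.6 RPKM in ATO libraries, against 18.9, 20.9 and 20.7 RPKM in control libraries (log2 fold change 0.52, adjusted p = 0.00305). Its spread was small beside the difference between groups. ZNF788, a transcribed pseudogene on chromosome 19, had 12.6, 11.7 and 12.2 RPKM in ATO libraries, against 7.09, 8.70 and 7.996 RPKM in control libraries (log2 fold change 0.57, adjusted p = 0.0057). ZNF184, on chromosome 6 with 19 finger motifs, had 11.1, 12.1 and 9.72 RPKM in ATO libraries, against 6.03, 8.88 and 6.96 RPKM in control libraries (log2 fold change 0.54, adjusted p = 0.0333). It was the only one of the 10 largest rises to lose its call when 1 library was left out, with an adjusted p of 0.0879 without ATO replicate 1, 0.0991 without ATO replicate 2, 0.081 without control replicate 1 and 0.0906 without control replicate 3. ZNF518A, the other of the 10, is described with the chromatin proteins.

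The largest fall was that of ZNF29P, whose exon of 168 bases lies inside the span of TRIM16 on chromosome 17. It had 2.94, 4.50 and 4.88 RPKM in ATO libraries, against 6.48, 11.99 and 8.16 RPKM in control libraries (log2 fold change -0.94, SE 0.24, adjusted p = 0.0281). Its values rest on few reads, its strand was not recorded, and it was not called with limma-voom (adjusted p = 0.0553). It was also lost to single libraries, with an adjusted p of 0.0757 without ATO replicate 1, 0.0583 without ATO replicate 2, 0.0647 without control replicate 2 and 0.0654 without control replicate 3. Reads of the pseudogene and of TRIM16 cannot be told apart here.

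ZNF512B (chromosome 20, 63956702 to 63969865), known as a regulator of TGF-beta signalling, had 6.95, 6.34 and 8.39 RPKM in ATO libraries, against 13.9, 12.2 and 12.2 RPKM in control libraries (log2 fold change -0.75, SE 0.11, adjusted p = 0.00474). ZNF749 (chromosome 19, 57435329 to 57445485), a KRAB gene with 13 finger motifs, had 4.41, 4.47 and 5.17 RPKM in ATO libraries, against 8.53, 9.23 and 7.81 RPKM in control libraries (log2 fold change -0.74, SE 0.10, adjusted p = 0.00362). ZNF526, with 13 finger motifs and no KRAB match, had 3.09, 2.82 and 3.35 RPKM in ATO libraries, against 6.41, 5.38 and 4.76 RPKM in control libraries (log2 fold change -0.67, SE 0.13, adjusted p = 0.0115). The ATO libraries of these 3 genes all lay below the control libraries. ZNF22, a gene with 5 finger motifs on chromosome 10, had 14.6, 16.1 and 14.1 RPKM in ATO libraries, against 21.6, 23.5 and 24.7 RPKM in control libraries (log2 fold change -0.61, SE 0.08, adjusted p = 0.00287). ZNF202, a SCAN domain protein known as a repressor of lipid metabolism genes, had 5.43, 5.90 and 6.24 RPKM in ATO libraries, against 9.07, 8.40 and 8.77 RPKM in control libraries (log2 fold change -0.51, adjusted p = 0.00742). ZNF114, a KRAB gene with 3 finger motifs, had 8.56, 7.91 and 8.56 RPKM in ATO libraries, against 13.3, 11.3 and 12.2 RPKM in control libraries (log2 fold change -0.50, adjusted p = 0.00703). All 6 calls held with any 1 library left out.

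ZNF438 had 4.06, 4.33 and 3.69 RPKM in ATO libraries, against 5.55, 7.02 and 6.21 RPKM in control libraries (log2 fold change -0.53, adjusted p = 0.0174), and its adjusted p was 0.0504 without ATO replicate 1, 0.0578 without control replicate 2 and 0.0556 without control replicate 3. ZNF814 had 3.41, 3.53 and 3.22 RPKM in ATO libraries, against 4.90, 5.06 and 5.30 RPKM in control libraries (log2 fold change -0.47, adjusted p = 0.0148), and its adjusted p was 0.0587 without control replicate 3. ZNF343 had 4.31, 4.48 and 4.15 RPKM in ATO libraries, against 5.50, 7.29 and 6.35 RPKM in control libraries (log2 fold change -0.47, adjusted p = 0.027), and its adjusted p was 0.0728 without ATO replicate 1, 0.0598 without ATO replicate 2, 0.0662 without ATO replicate 3, 0.0803 without control replicate 2 and 0.0777 without control replicate 3. In all 3 the ATO libraries lay below the control libraries. The span of ZNF814 overlaps ZNF587, another called member, and the kit does not mark strand.

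**Figure D2:**
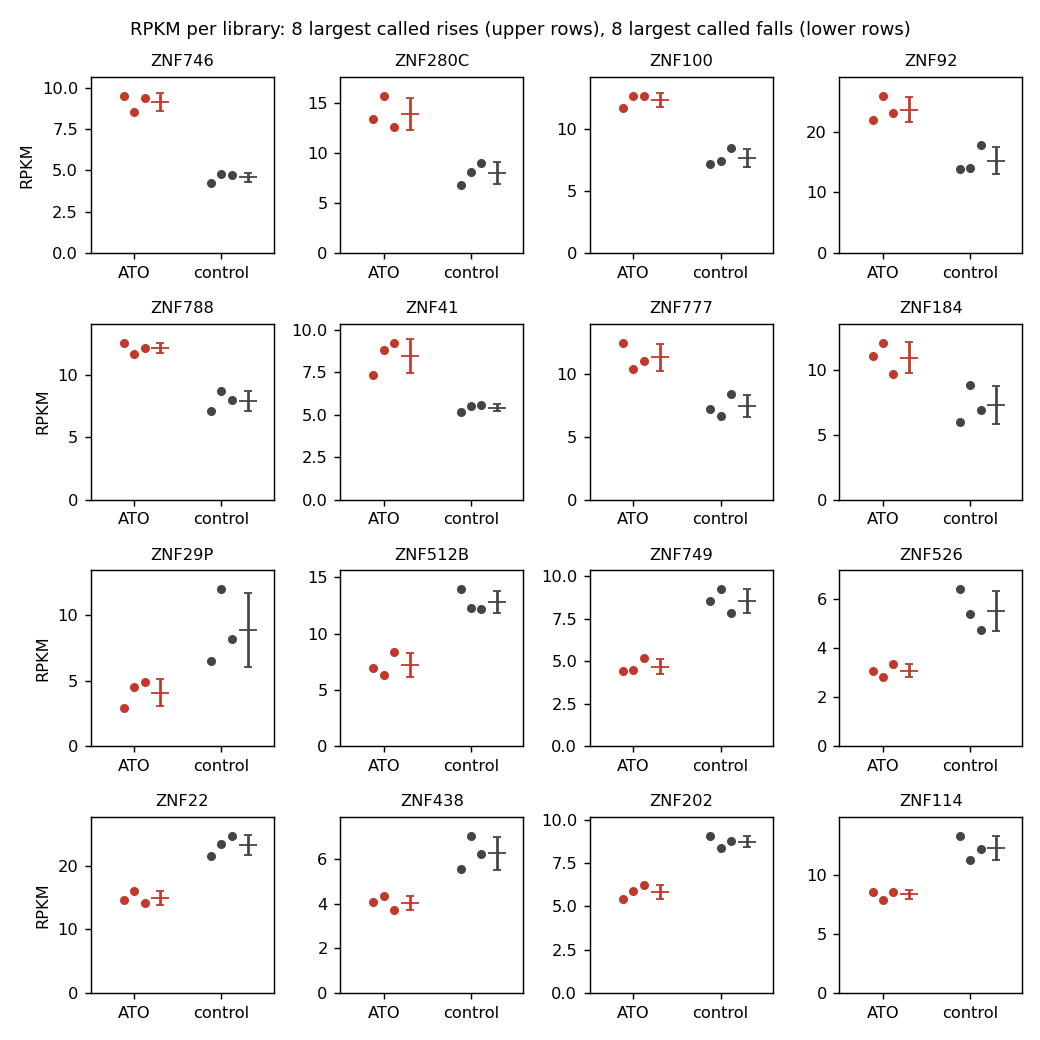
RPKM in each library (vertical axes, from 0) of the 8 largest called rises in the upper rows and the 8 largest called falls in the lower rows. Points are libraries, red for ATO and dark grey for control, and the crosses beside them are means with bars of 1 SD (n = 3 each). In every panel the 3 ATO points lie on one side of the 3 control points.

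The 8 members with the highest control level held 16.9% of the members' summed control RPKM, and only 1 of them was called with limma-trend. ZNF121, the highest, had 60.7, 68.1 and 52.4 RPKM in ATO libraries, against 66.4, 74.1 and 75.4 RPKM in control libraries (log2 fold change -0.25, adjusted p = 0.112). Its groups overlapped, and it did not pass the test, although limma-voom called it (adjusted p = 0.0391). ZNF664 averaged 37.1 ± 0.400 RPKM in ATO libraries and 40.7 ± 0.673 RPKM in control libraries (log2 fold change -0.13, adjusted p = 0.0859), ZNF770 averaged 46.2 ± 2.97 RPKM in ATO libraries and 40.2 ± 3.94 RPKM in control libraries (log2 fold change 0.20, adjusted p = 0.127) and ZNF317 had 36.3, 33.3 and 35.4 RPKM in ATO libraries, against 35.8, 35.4 and 39.6 RPKM in control libraries (log2 fold change -0.08, adjusted p = 0.436). None of these 3 was called with limma-trend. ZNF146, known as OZF, a protein made almost only of fingers (10 motifs here), had 24.6, 27.4 and 24.5 RPKM in ATO libraries, against 35.1, 32.9 and 35.1 RPKM in control libraries (log2 fold change -0.42, SE 0.07, adjusted p = 0.0056) and was lower after ATO also with any 1 library left out. The order of levels in control was ZNF121, ZNF664, ZNF770, ZNF317, ZNF146, ZNF106, ZNF622 and ZNF592. ZNF592 averaged 30.8 ± 2.25 RPKM in ATO libraries and 29.5 ± 1.36 RPKM in control libraries. The control libraries of ZNF121 and ZNF664, of ZNF317 and ZNF146 and of ZNF146 and ZNF106 did not overlap, and the other neighbours in that order did.

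Members with a role on ribosomes or RNA were read as a list. Of 10 such genes, 8 are members, of which 1 was higher and 0 lower with limma-trend, with a median log2 fold change of 0.01. At an unadjusted p under 0.05, and likewise with limma-voom, 1 was higher and 1 lower. Of all tested genes 12% were higher and 13.4% lower with limma-trend, and 18.9% and 20.3% at that unadjusted p. The list is too short to be told apart from these shares. ZNF346, which binds double-stranded RNA, was the one called higher, at 10.7 ± 0.629 RPKM in ATO libraries and 8.72 ± 0.435 RPKM in control libraries (log2 fold change 0.27, adjusted p = 0.048), but its adjusted p was 0.131 without ATO replicate 1, 0.0563 without ATO replicate 2, 0.111 without ATO replicate 3, 0.0739 without control replicate 1, 0.137 without control replicate 2 and 0.11 without control replicate 3. ZNF622, the homologue of the yeast factor Rei1 in late large-subunit assembly, averaged 33.04 ± 3.26 RPKM in ATO libraries and 31.05 ± 2.41 RPKM in control libraries (log2 fold change 0.09, adjusted p = 0.52). ZNF598, the ubiquitin ligase that marks collided ribosomes, had 14.4, 13.2 and 10.7 RPKM in ATO libraries, against 14.95, 17.2 and 17.4 RPKM in control libraries (log2 fold change -0.35, adjusted p = 0.0667). Its ATO libraries all lay below its control libraries, and the difference did not pass the test, although limma-voom called it (adjusted p = 0.0218). ZNF207, a spindle and splicing factor known as BuGZ, averaged 28.04 ± 0.321 RPKM in ATO libraries and 28.2 ± 0.691 RPKM in control libraries (log2 fold change -0.01, SE 0.05). ZNF638, an RNA-binding nuclear protein, averaged 28.4 ± 2.11 RPKM in ATO libraries and 28.6 ± 1.35 RPKM in control libraries (log2 fold change -0.01, SE 0.07). ZNF106, ZNF326 and ZNF830 had log2 fold changes of 0.03, 0.11 and -0.22 and were not called.

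DNA-binding regulators outside the KRAB group moved in both directions. Of 11 listed, 9 are members, of which 2 were higher and 2 lower, against 12% and 13.4% of all tested genes. ZNF281, a repressor tied to stem cell programmes, was higher, with 18.4, 19.7 and 19.8 RPKM in ATO libraries, against 15.1, 16.02 and 14.9 RPKM in control libraries (log2 fold change 0.31, SE 0.06, adjusted p = 0.0134), and its adjusted p was 0.0526 without control replicate 3. ZNF335, a subunit of histone methyltransferase complexes, was higher, with 13.3, 12.3 and 14.1 RPKM in ATO libraries, against 11.1, 10.9 and 10.2 RPKM in control libraries (log2 fold change 0.28, SE 0.08, adjusted p = 0.039), and its adjusted p was 0.1 without ATO replicate 1, 0.0958 without ATO replicate 3, 0.0654 without control replicate 1, 0.0892 without control replicate 2 and 0.123 without control replicate 3. ZNF217, a corepressor-bound protein amplified in breast cancers, was lower, with 15.4, 17.6 and 13.6 RPKM in ATO libraries, against 21.1, 21.3 and 21.4 RPKM in control libraries (log2 fold change -0.44, SE 0.09, adjusted p = 0.0165). Its 3 control libraries were almost equal and its ATO libraries spread more widely, and its adjusted p was 0.0519 without control replicate 2 and 0.053 without control replicate 3. ZNF146, lower, is given above. ZNF143, which binds many promoters, had 8.46, 9.58 and 12.996 RPKM in ATO libraries, against 10.2, 8.21 and 9.07 RPKM in control libraries (log2 fold change 0.15, adjusted p = 0.531). ATO replicate 3 stood above its other ATO libraries, and ZNF143 was not called. ZNF24, ZNF131, ZNF148 and ZNF384 had log2 fold changes of 0.17, 0.10, 0.05 and 0.26 and were not called.

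Among members that work in chromatin complexes or SUMO transfer, 6 of a list of 7 were present, 2 were higher and 0 lower with limma-trend. At an unadjusted p under 0.05, and likewise with limma-voom, 3 were higher and 0 lower. Of all tested genes 12% were higher and 13.4% lower with limma-trend, and 18.9% and 20.3% at that unadjusted p. ZNF518A, reported as a partner of histone H3 lysine methyltransferases, had 23.9, 27.2 and 26.7 RPKM in ATO libraries, against 16.004, 18.9 and 18.9 RPKM in control libraries (log2 fold change 0.51, SE 0.09, adjusted p = 0.00739) and stayed called with any 1 library left out. ZNF644, which guides the methyltransferases G9a (EHMT2) and GLP (EHMT1), had 33.1, 32.7 and 35.01 RPKM in ATO libraries, against 29.5, 28.4 and 27.6 RPKM in control libraries (log2 fold change 0.23, SE 0.06, adjusted p = 0.0242), with an adjusted p of 0.0583 without ATO replicate 1, 0.0605 without ATO replicate 3, 0.0739 without control replicate 2 and 0.0851 without control replicate 3. ZNF451, a SUMO ligase, averaged 14.3 ± 0.468 RPKM in ATO libraries and 11.8 ± 1.06 RPKM in control libraries (log2 fold change 0.26, adjusted p = 0.0559). ZNF592 and ZNF687, which sit together in a ZMYND8-containing complex, had log2 fold changes of 0.06 and -0.14, and ZNF516 had 0.16, without passing the test.

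Of 11 KRAB-type genes studied as repressors, 3 are members and 0 were called with limma-trend, which called 25.4% of all tested genes. At an unadjusted p under 0.05, and likewise with limma-voom, 1 was higher and 1 lower. Of all tested genes 18.9% were higher and 20.3% lower at that unadjusted p. ZNF91, which silences SVA retrotransposons, had 10.7, 12.02 and 12.6 RPKM in ATO libraries, against 7.82, 8.77 and 10.2 RPKM in control libraries (log2 fold change 0.36, adjusted p = 0.0529). Every ATO library was above every control library, and limma-voom called it higher (adjusted p = 0.0096). ZNF263 averaged 6.94 ± 0.290 RPKM in ATO libraries and 8.37 ± 0.601 RPKM in control libraries (log2 fold change -0.24, adjusted p = 0.0869, and 0.0446 with limma-voom) and ZNF267 averaged 8.10 ± 1.28 RPKM in ATO libraries and 8.14 ± 0.490 RPKM in control libraries (log2 fold change -0.01, adjusted p = 0.941). ZNF274, which is known to bind the 3' ends of ZNF genes themselves, lay under the threshold, with 3.98, 3.87 and 2.41 RPKM in ATO libraries, against 1.57, 3.57 and 3.19 RPKM in control libraries. Its groups overlapped.

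The partners through which KRAB proteins act were also read. Of 28 such genes, all tested, 2 were higher (7.14%), 8 lower (28.6%) and 18 not called, with a median log2 fold change of -0.09. The same test called 12% of all tested genes higher and 13.4% lower. Among protein-coding genes with a control mean of at least 4 RPKM it called 13.9% higher and 20.2% lower. Whether the list differs from these shares was not tested. TRIM28, the direct KRAB partner, had 141, 110 and 128 RPKM in ATO libraries, against 181, 169 and 160 RPKM in control libraries (log2 fold change -0.43, adjusted p = 0.0207). EHMT2, a histone H3 lysine 9 methyltransferase, had 10.2, 9.66 and 8.55 RPKM in ATO libraries, against 16.1, 19.1 and 16.6 RPKM in control libraries (log2 fold change -0.81, adjusted p = 0.00215). UHRF1, which couples that mark to DNA methylation, had 20.2, 20.1 and 22.2 RPKM in ATO libraries, against 31.1, 32.3 and 32.98 RPKM in control libraries (log2 fold change -0.60, adjusted p = 0.00139). These 3 were lower without overlap between groups, and the adjusted p of TRIM28 was 0.0612 without control replicate 1 and 0.06 without control replicate 2. DAXX, CBX3, MORC2, MTA1 and CHD4 were also lower, with log2 fold changes of -0.53, -0.45, -0.35, -0.31 and -0.25. ATF7IP, the partner of the methyltransferase SETDB1, was higher, with 20.4, 22.6 and 21.6 RPKM in ATO libraries, against 12.4, 16.04 and 14.9 RPKM in control libraries (log2 fold change 0.55, adjusted p = 0.00867), and CHD3 was higher at 0.46. With 1 library left out, CHD3 was lost without ATO replicate 1 (adjusted p = 0.0536) and ATO replicate 2 (0.0619), and MORC2, MTA1 and CHD4 were lost without ATO replicate 1, ATO replicate 3, control replicate 2 or control replicate 3 (adjusted p 0.0518 to 0.13). MTA1 and CHD4 were also lost without control replicate 1 (0.0566 and 0.0596). SETDB1 itself averaged 10.8 ± 0.218 RPKM in ATO libraries and 11.003 ± 0.818 RPKM in control libraries (log2 fold change -0.02, adjusted p = 0.868).

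Split by domain, members with the strict KRAB match had 14 of 58 higher (24.1%) and 6 lower (10.3%), with a median log2 fold change of 0.17. Members without it had 17 of 113 higher (15.04%) and as many lower, with a median of 0.03. Beside these counts, 12% of all tested genes were higher and 13.4% lower. Among protein-coding genes with a control mean of at least 4 RPKM, 13.9% were higher and 20.2% lower. With the looser pattern, chosen after the strict one had missed genes with a known KRAB domain, 19 of 82 were higher and 10 lower (median 0.14), against 12 and 13 of 89 without it (median 0.03). The difference between the 2 kinds was not tested. The higher count of KRAB members was 6 to 11 with 1 library left out, with 6 without ATO replicate 2, 9 without ATO replicate 3 and 9 without control replicate 1, and was 5 without both control replicate 1 and ATO replicate 3. The single-library fits called 7.92% to 9.08% of all tested genes higher and 8.49% to 11.4% lower. The fit without both libraries called 7.14% higher and 8.83% lower. Members without the match had 7 to 15 higher and 7 to 12 lower over the same single-library fits. Their higher count was 7 without ATO replicate 1, 11 without ATO replicate 2, 10 without ATO replicate 3, 10 without control replicate 2 and 7 without control replicate 3. Their lower count was 8, 11, 11, 7 and 7 in those 5 fits. Levels were alike, with median control means of 7.73 RPKM with the match and 8.51 RPKM without it.

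Finger number went the same way. Of 25 members with at least 16 finger motifs, 9 were higher and 2 lower (median 0.19). Of 41 with 11 to 15 motifs, 10 were higher and 6 lower (median 0.13), of 59 with 6 to 10 motifs 8 and 7 (median 0.06), and of 46 with at most 5 motifs 4 and 8 (median 0.03). The shares over all tested genes were 12% higher and 13.4% lower. Members with 6 to 10 motifs lay near them, at 13.6% and 11.9%. No class was tested against these shares. Across the 171 coding members the correlation of finger number with log2 fold change was weak (Pearson's r 0.11, Spearman's rho 0.14). These points share libraries and, in the paralogous genes, sequence. KRAB members had a median of 11 motifs and the others 8, so that the 2 splits overlap. Spearman's rho of log2 fold change was -0.11 with control level and 0.20 with exon length across the 175 members.

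**Figure D3:**
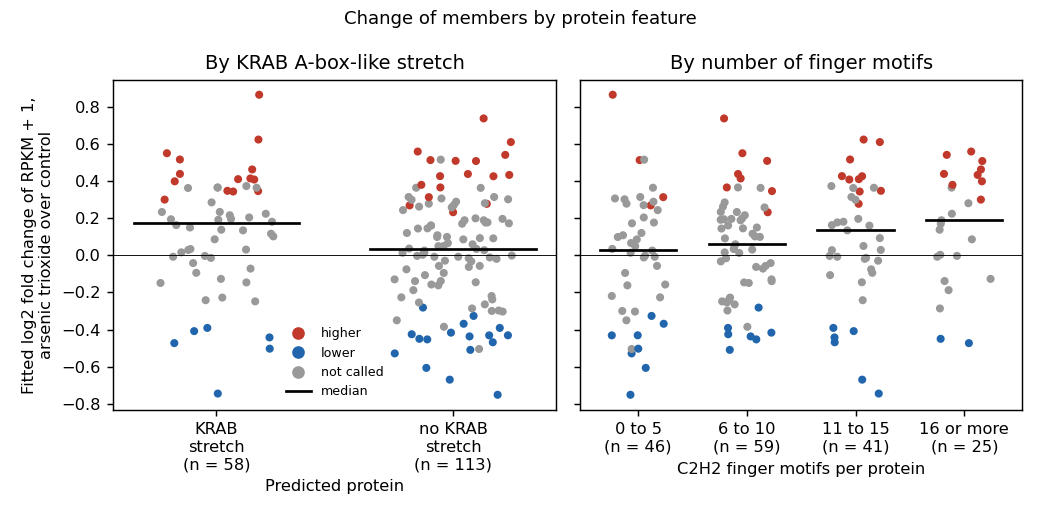
Fitted log2 fold change of RPKM + 1, ATO over control (vertical axes), of the 171 coding members by strict KRAB match (left panel) and by number of C2H2 finger motifs (right panel). Points are genes, coloured by call, spread sideways for visibility, and black lines are medians, which are 0.17 with and 0.03 without a KRAB match and run from 0.03 to 0.19 over the finger classes.

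Members were then placed in genomic clusters, defined as at least 4 members with neighbours less than 1 Mb apart. The definition was chosen after the values were seen and received no test. Clusters held 75 members, of which 19 were higher and 7 lower. Outside them, 14 of 100 were higher and 17 lower. Chromosome 19 as a whole had 11 higher and 9 lower of 57, against 22 and 15 of 118 elsewhere. For comparison, 12% of all tested genes were higher and 13.4% lower. Among protein-coding genes with a control mean of at least 4 RPKM, 13.9% were higher and 20.2% lower. None of these groups was tested against those shares.

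In 4 clusters, with 22 members in all, every fold change was positive. These clusters were grouped because they hold no negative fold change. That choice fixes a lower count of 0 in advance and raises the higher counts. With limma-trend 9 were higher and 0 lower, and at an unadjusted p under 0.05, as with limma-voom, 16 were higher and 0 lower. Of all tested genes, which were not chosen by sign, 18.9% were higher and 20.3% lower at that unadjusted p. The fourth of these clusters, ZNF789, ZNF394, ZNF655 and ZNF3 on chromosome 7 (99472841 to 100082548), had 0 called with limma-trend, at an unadjusted p under 0.05 or with limma-voom, and a median log2 fold change of 0.14. Of the other 3, the first spans chromosome 19 from ZNF430 to ZNF43 (21020620 to 21852125) with 7 members, 4 called higher and a median log2 fold change of 0.40. ZNF714 in it had 13.2, 14.6 and 14.2 RPKM in ATO libraries, against 9.90, 10.1 and 10.5 RPKM in control libraries (log2 fold change 0.43, adjusted p = 0.00667). ZNF430 averaged 7.52 ± 0.360 RPKM in ATO libraries and 5.42 ± 0.445 RPKM in control libraries (log2 fold change 0.41, adjusted p = 0.021, and 0.0655 without ATO replicate 2, 0.0545 without ATO replicate 3 and 0.063 without control replicate 2). ZNF43 averaged 6.12 ± 0.206 RPKM in ATO libraries and 4.41 ± 0.249 RPKM in control libraries (log2 fold change 0.40, adjusted p = 0.0216, and 0.0544 without ATO replicate 1, 0.0675 without ATO replicate 2, 0.0511 without ATO replicate 3, 0.0594 without control replicate 1 and 0.0606 without control replicate 2). ZNF100 was the fourth call. ZNF708, ZNF738 and ZNF431 did not pass, at 0.37, 0.36 and 0.16.

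The second cluster, 23221599 to 24129961 on the same chromosome, has ZNF724P, ZNF91, ZNF675 and ZNF254, with 1 called higher and log2 fold changes between 0.35 and 0.36. The called one, ZNF254, had 10.9, 11.5 and 10.6 RPKM in ATO libraries, against 7.61, 8.87 and 8.85 RPKM in control libraries (log2 fold change 0.35, adjusted p = 0.0266, and 0.0712 without ATO replicate 1, 0.0811 without ATO replicate 2, 0.0634 without control replicate 1, 0.0519 without control replicate 2 and 0.0559 without control replicate 3). The third lies on chromosome 7 from ZNF736 to ZNF92 (64307459 to 65401135) and has 7 members, 4 called higher and a median of 0.36. ZNF736 had 13.3, 13.01 and 13.8 RPKM in ATO libraries, against 9.68, 9.73 and 9.95 RPKM in control libraries (log2 fold change 0.41, adjusted p = 0.00551). ZNF107 had 15.9, 17.9 and 17.4 RPKM in ATO libraries, against 10.97, 12.6 and 13.5 RPKM in control libraries (log2 fold change 0.44, adjusted p = 0.0152, and 0.051 without ATO replicate 2). ZNF680 averaged 13.1 ± 1.03 RPKM in ATO libraries and 10.1 ± 0.729 RPKM in control libraries (log2 fold change 0.34, adjusted p = 0.0296, and 0.0876 without ATO replicate 2, 0.0776 without ATO replicate 3, 0.0814 without control replicate 1 and 0.0862 without control replicate 3). ZNF92 was the fourth call, and ZNF138, ZNF273 and ZNF117 did not pass, at 0.20, 0.28 and 0.36.

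The cluster at the end of chromosome 19, from ZNF460 to ZNF324 (57280051 to 58475436), went mostly the other way. Of its 11 members 1 was higher, 4 were lower and 8 had a negative fold change, with a median of -0.24. ZNF749, ZNF814, ZNF587B and ZNF587 were the lower ones. The shares over all tested genes were 12% higher and 13.4% lower. ZNF587 had 8.33, 7.98 and 8.17 RPKM in ATO libraries, against 10.8, 10.9 and 11.3 RPKM in control libraries (log2 fold change -0.39, adjusted p = 0.00861) and stayed called with any 1 library left out. ZNF587B averaged 6.74 ± 0.747 RPKM in ATO libraries and 9.24 ± 0.422 RPKM in control libraries (log2 fold change -0.41, adjusted p = 0.0247, and 0.0624 without ATO replicate 1, 0.0507 without ATO replicate 2, 0.0702 without control replicate 1, 0.0518 without control replicate 2 and 0.0791 without control replicate 3). ZNF460, at the cluster's edge, was higher, with 31.8, 29.9 and 30.1 RPKM in ATO libraries, against 21.8, 23.9 and 22.8 RPKM in control libraries (log2 fold change 0.41, adjusted p = 0.00432). ZNF584, ZNF544 and ZNF324 were at -0.38, -0.24 and -0.15 and did not pass.

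The cluster of ZNF746 and ZNF777 on chromosome 7 (149126416 to 149624752) was mixed. It has 7 members, 3 higher, with the pseudogene ZNF767P at 0.42 as the third, and 1 lower, ZNF398, which averaged 8.58 ± 0.233 RPKM in ATO libraries and 11.6 ± 1.80 RPKM in control libraries (log2 fold change -0.39, adjusted p = 0.0399, and 0.0831 without ATO replicate 1, 0.1 without ATO replicate 2, 0.0885 without ATO replicate 3, 0.0703 without control replicate 2 and 0.0861 without control replicate 3). On chromosome 3, ZNF197 and ZNF660 were higher at 0.51 and 0.44 within a cluster of 5, and their spans overlap each other. The adjusted p of ZNF197 was 0.0204, and 0.0649 without ATO replicate 1, 0.0653 without ATO replicate 2 and 0.0505 without control replicate 2. That of ZNF660 was 0.0421, and 0.0694 without ATO replicate 1, 0.0693 without ATO replicate 2, 0.0984 without ATO replicate 3, 0.107 without control replicate 1, 0.098 without control replicate 2 and 0.0511 without control replicate 3. Copies within a cluster are similar in sequence and the sources used here do not say how reads that fit several copies were counted, so values of single copies are uncertain. Of the 57 called members, 32 overlap another listed gene. Members that overlap no gene had 14 higher and 11 lower of 68, and those that do had 19 and 13 of 107. Beside these cluster and overlap counts, 12% of all tested genes were higher and 13.4% lower.

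**Figure D4:**
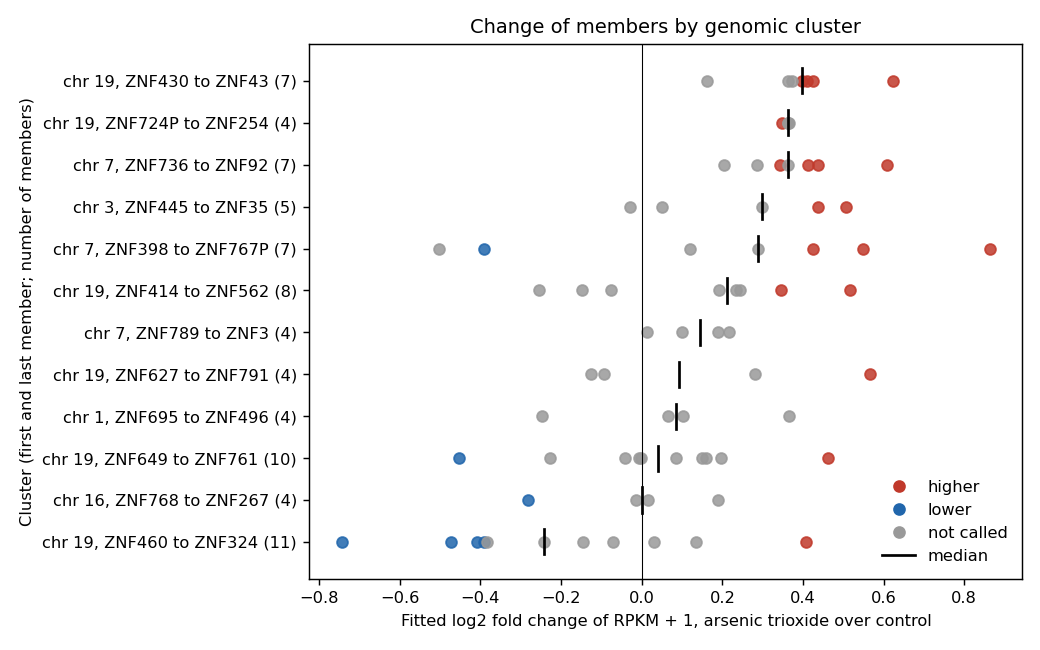
Fitted log2 fold change of RPKM + 1, ATO over control (horizontal axis), of members in the 12 genomic clusters (rows, ordered by median, with first and last member and number of members). Points are genes coloured by call and black ticks are medians. The 3 uppermost rows and that from ZNF789 to ZNF3 lie wholly right of 0, and the lowest row, the end of chromosome 19, has a median of -0.24.

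Promoters of the kind printed above were found for 148 of the 175 members. For genes with several starts, among them 33 members, the first in the table was used. Exact letters were searched on both strands, and variants of a motif were not counted. The ETS element, CCGGAAG, was in 67 of the 148 member promoters (45.3%), against 10.7% of all 27305 promoters and 14.2% of the 15843 of protein-coding genes. The TATA box, TATAAA, was in 7 (4.73%, against 11.95% of all). The core of the ZNF143 element, ACTACAA, was in 7 (4.73%, against 2.95%). The core of the NRF2 element, TGACNNNGC with N for any base, was in 24 (16.2%, against 13.6%). The heat shock element, GAANNTTC, was in 8 (5.41%, against 6.87%), and the ATF4 element, TGATGNAA, was in 3 (2.03%, against 3.67%). None of these letter strings contains another. Member promoters had a median GC content of 62.3%, against 58.3% in all, and a median of 23 CG pairs, against 14, so base composition differs as well.

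The ETS letters were present in 17 of 26 higher members with a promoter, in 7 of 18 lower ones and in 43 of 104 not called. It was in 32 of 49 promoters of KRAB members and in 35 of 99 of the others. In the 4 clusters where every fold change was positive 15 of 19 promoters had it. In the cluster at the end of chromosome 19, where fold changes were mostly negative, 8 of 10 had it, including ZNF587 printed above. In the remaining 7 clusters, which hold fold changes of both signs, 14 of 34 had it, among them 1 of 7 from ZNF414 to ZNF562 on chromosome 19 and 0 of 4 from ZNF398 to ZNF767P on chromosome 7. A match is a run of letters and not a measured binding site. The nearest match began at 4 relative to the start in ZNF616, ZNF808, ZNF766, ZNF611 and ZNF160. It began at -24 in ZNF431, ZNF138, ZNF680, ZNF91, ZNF43 and ZNF92. Related copies can share promoter sequence, so neither the share over all members nor these splits count independent promoters.

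At an adjusted p under 0.05, 49 members were higher and 30 lower in the authors' deposited table, where 13.3% of the 16803 genes tested here were higher and 16% lower in that table. It shared 55 of the 57 calls given here, all with the same sign, and ZNF29P and ZNF346 were the other two. The median log2 fold change in the authors' deposited table was 0.08 over the members and -0.017 over the tested genes, and none of the members it called was at least 2-fold changed.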

How the data were processed

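The RNA of 6 NB4 libraries was measured, 3 per group. Per the submitters' processing notes, HISAT2 2.1.0, HTSeq, DESeq2 and hg38 were used, without parameters. The file headers mark duplicates as removed. The authors deposited RPKM per gene and library, with their own mean normalized signal, log2 fold change, test score and p-value columns, which entered no test here. Reads were recovered from RPKM, GENCODE 29 exon length and a library total, and came out whole within 0.01 reads for 93.0% of genes from the annotated length and 100.0% once the authors' mean settled the length. Only genes with at least 21 reads over the 6 libraries are listed. The kit does not mark strand.

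Values entered limma 3.58.1 (R 4.3.3, trend mode) as log2 of RPKM + 1, with treatment as the term, for genes averaging at least 1 RPKM over the 6 libraries, with Benjamini-Hochberg adjustment and calls under 0.05. Alternatives covered scaling, filter, pseudocount, limma-voom, the replicate number as a block, each library left out, and how members are chosen.

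Members and lists were chosen with earlier results of these data known. Named are the 10 largest called rises and falls without overlap between groups, the 8 highest control levels, the members of the role lists and the 3 symbols on either side of the threshold. The clusters, their named genes, the printed promoters, the looser KRAB pattern and the fit without 2 libraries were chosen after seeing the values. Protein features came from translated GENCODE coding transcripts in place of the planned RefSeq proteins, and no protein sequence is printed. A finger is C, 2 to 4 residues, C, 12 residues, H, 3 to 5 residues, H. The strict KRAB match is D-V-A, any pair, F, any pair, E or Q, E or Q, W or R, where V may be I or L. Alignments used a match of 1, a mismatch of -1 and gap costs of 3 and 0.5. No column of the file was left unmapped.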

Additional observations from a re-analysis of the deposited data

How the results depend on the processing

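The main counts were 33 members higher and 24 lower with a median log2 fold change of 0.09, 14 and 6 for KRAB members and 17 and 17 for members without KRAB. With limma-voom 50 members were higher, 28 of them without KRAB. A pseudocount of 5 gave a median of 0.0727. Deviations of same-numbered samples from their group means correlated at -0.085, 0.148 and -0.083. The highest correlation of any pair was 0.221, for ATO replicate 3 with control replicate 1. With 3 libraries per group these values cannot settle whether the replicate numbers pair the samples. With the replicate block 15 members were lower, and members without KRAB had 11 higher and 10 lower. Leaving out 1 library gave 18 to 25 higher, 11 to 18 lower, a median of 0.0625 to 0.1092, 6 to 11 KRAB members higher, and 7 to 15 higher and 7 to 12 lower among members without KRAB. Without control replicate 1 and ATO replicate 3, chosen after seeing the data, it was 14 higher and 13 lower, a median of 0.0565, 5 KRAB members higher, and 8 higher and 8 lower without KRAB. The cause was not tested.

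Other choices changed the number of members. At a control mean of at least 8 RPKM 86 members had 17 higher and 17 lower, a median of 0.0547, 7 KRAB members higher, and 10 higher and 11 lower without KRAB. Chosen on the mean of all 6 libraries or on the ATO mean, the median was 0.1299 or 0.1545. Chosen on control replicate 1 and fitted without it, the median was 0.0718 with 9 KRAB members higher. Chosen on control replicate 2, 12 were lower, with 10 higher and 7 lower without KRAB. Chosen on control replicate 3, 19 were higher and 11 lower, with a median of 0.1191, and 7 higher and 7 lower without KRAB. Without members that overlap another gene 68 remained, with 14 higher, 11 lower, a median of 0.1120, 6 and 3 for KRAB members and 7 and 8 without KRAB. The looser KRAB pattern, chosen after seeing the data, gave 10 KRAB members lower. Median-ratio and upper quartile factors, no filter, a filter at 1 CPM, a pseudocount of 0.1 and a control mean of at least 2 RPKM kept each of these counts within 1.5 times its main value. Of 780 values of the named genes under the alternatives, 712 stayed on their side of the threshold, 13 passed it newly, 55 no longer passed and 0 changed sign. The planned edgeR fit was not run because the deposited values are RPKM. Of the 57 calls, 23 passed in each of the 6 fits without 1 library.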

Other observations

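Relatives of the members were read with the same test, in RPKM. Of 156 tested ZNF symbols under the threshold of 4 RPKM, 12 were higher (7.69%) and 4 lower (2.56%) after ATO. Of all tested genes, 12% were higher and 13.4% lower. These symbols were chosen for a low control level, and the filter of the test also counts ATO libraries. Some, such as ZNF713 and ZNF425, entered only through their ATO level, which favours higher calls. No conclusion is drawn from the balance of these calls. ZNF823 was the only one of the 156 with a fitted change of at least 2-fold (limma-trend, log2 fold change 1.05, adjusted p = 0.0115). It had 5.09, 4.86 and 8.62 RPKM in ATO libraries against 2.11, 2.52 and 2.52 RPKM in control libraries. ATO replicate 3 stood above its other ATO libraries. ZNF678 had 6.34, 7.95 and 6.75 RPKM in ATO libraries against 2.96, 3.71 and 3.77 RPKM in control libraries (log2 fold change 0.84, adjusted p = 0.00487).

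Of 6 tested ZKSCAN genes, which join a KRAB and a SCAN domain to fingers, 4 were higher and 0 lower with limma-trend, with a median log2 fold change of 0.40. At an unadjusted p under 0.05, and likewise with limma-voom, 5 were higher and 0 lower. Beside these and the next families, 12% of all tested genes were higher and 13.4% lower with limma-trend. The shares were 18.9% and 20.3% at that unadjusted p, and 15% and 16.2% with limma-voom. No family was tested against these shares. ZKSCAN3, known as a repressor of autophagy genes, had 5.25, 6.14 and 4.59 RPKM in ATO libraries against 2.01, 3.02 and 2.97 RPKM in control libraries (adjusted p = 0.0136). ZKSCAN8, among the 4, kept its call without ATO replicate 3 and lost it without any other single library (adjusted p 0.0924 to 0.116). Of 14 tested ZSCAN genes 2 were higher (14.3%) and 1 lower (7.14%). ZSCAN20, among the 2, was called in none of the 6 fits without 1 library (adjusted p 0.0598 to 0.1). ZSCAN26 had 9.79, 10.9 and 9.76 RPKM in ATO libraries against 4.59, 5.23 and 4.74 RPKM in control libraries (log2 fold change 0.93, adjusted p = 0.00117). Of 35 tested ZBTB genes, which carry a BTB domain in place of KRAB, 9 were higher (25.7%) and 7 lower (20%). ZBTB38, among the 9, had 1.57, 1.31 and 1.84 RPKM in ATO libraries against 0.681, 0.606 and 0.661 RPKM in control libraries. It entered the test only through its ATO level, which favours higher calls. ZBTB16, known as PLZF and as another fusion partner of RARA in this leukaemia, was lower, at 2.35, 2.58 and 1.64 RPKM in ATO libraries against 3.39, 5.29 and 5.14 RPKM in control libraries (adjusted p = 0.0229). Its adjusted p was 0.0543 without ATO replicate 1, 0.057 without ATO replicate 3, 0.0731 without control replicate 2 and 0.0737 without control replicate 3. ZBTB4 and ZBTB45 were called in none of the 6 fits without 1 library (adjusted p 0.0515 to 0.137). ZBTB33, ZBTB34, ZBTB38, ZBTB43, ZBTB44 and ZBTB47 lost their calls in some of these fits. ZBTB1, ZBTB2, ZBTB7B, ZBTB12, ZBTB21, ZBTB24 and ZBTB40 kept theirs in all of them. Of 9 tested ZFP genes 1 was higher and 0 lower with limma-trend, and 3 were higher and 0 lower at an unadjusted p under 0.05 and with limma-voom. The called one, ZFP36, encodes an RNA-binding protein with CCCH fingers, not C2H2 fingers, and its adjusted p was 0.053 to 0.106 in the 6 fits without 1 library, none of which called it. These genes were named after their values were seen.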
